A study of Mus musculus with 9 samples.

Results

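The 7 genes described here encode the working parts of MHC class II antigen presentation and were chosen by name: the chain genes H2-Aa, H2-Ab1 and H2-Eb1, the invariant chain gene Cd74, the peptide editor genes H2-DMa and H2-DMb1, and Ciita, the gene of the class II transactivator. They are 7 of 39017 genes in the count table, each matched to a single Ensembl ID by symbol, and all 7 passed the filter on low counts that left 14693 genes to test. RNA-seq read counts of CD4+ T cells from lymph nodes, taken from male C57BL/6 mice, were compared between 4 cKO and 5 WT samples. The comparison addresses Kdm6a, which encodes a demethylase of histone H3 and lies on the X chromosome. All samples carried floxed/y Kdm6a. The cKO samples (2, 6, 7 and 8) also carried CD4-Cre (+/-), which recombines in cells with Cd4 promoter activity, whereas the WT samples (1, 3, 4, 5 and 9) were CD4-Cre (-/-), so the presence of Cre and the loss of Kdm6a cannot be told apart. The name of the deposited counts, shared by both genotypes, contains the abbreviation stim, which may stand for stimulated cells. The kind and length of such a treatment were not found. The age of the mice and whether each sample came from a separate mouse were not given in the sources used here. A p-value therefore measures only how these samples spread, part of which may be technical. The genes were picked with their cKO against WT values already known, so their differences between genotypes are given as a description without a test.

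MHC class II molecules are pairs of an alpha and a beta chain that carry peptides to the cell surface, where the receptors of CD4+ T cells read them. The invariant chain fills the groove of new class II molecules and guides them to endosomes, proteases cut it down, and the H2-DM pair then swaps its last fragment for peptide, a step that the H2-O pair restrains. B cells, dendritic cells and macrophages are the usual class II cells of a lymph node, and mouse T cells are generally held to make little class II of their own. Ciita switches the genes on through a promoter module of S, X and Y boxes that is bound by the RFX complex, CREB and NF-Y.

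The promoters are shown because that module is the regulatory element the class II genes share. RefSeq promoter entries of build GRCm38.p6 matched 4 of the 7 genes (H2-Aa, H2-Eb1, H2-DMa and H2-DMb1) and 4 further class II genes, H2-DMb2, H2-Oa, H2-Ob and H2-Eb2. The 250 bases before the annotated start were searched on both strands for ATTGG (the core of the Y box), AACNGATG (a core of the X box) and TGACGTCA (the CRE, the site of CREB), letters that were picked after these promoters had been read. Each sequence below runs 5′ to 3′ on the strand of its gene, with matches to these letters on either strand in capitals, and no 2 matches overlap.
H2-Aa, chr17:34287824-34288073, minus strand: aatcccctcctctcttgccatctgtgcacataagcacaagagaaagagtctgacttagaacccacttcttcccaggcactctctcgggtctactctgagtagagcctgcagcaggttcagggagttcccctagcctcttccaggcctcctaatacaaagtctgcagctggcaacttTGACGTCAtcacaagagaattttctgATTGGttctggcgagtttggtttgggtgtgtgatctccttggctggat
H2-Eb1, chr17:34305617-34305866, plus strand: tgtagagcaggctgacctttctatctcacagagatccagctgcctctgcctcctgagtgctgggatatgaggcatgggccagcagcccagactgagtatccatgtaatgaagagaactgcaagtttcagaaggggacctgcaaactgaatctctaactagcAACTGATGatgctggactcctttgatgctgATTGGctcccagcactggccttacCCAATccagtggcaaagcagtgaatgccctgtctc
H2-DMb1, chr17:34152941-34153190, plus strand: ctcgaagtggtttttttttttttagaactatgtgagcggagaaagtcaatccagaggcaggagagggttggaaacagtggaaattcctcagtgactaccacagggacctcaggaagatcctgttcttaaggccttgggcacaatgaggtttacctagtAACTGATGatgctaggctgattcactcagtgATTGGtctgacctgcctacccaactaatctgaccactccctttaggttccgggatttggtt
H2-DMb2, chr17:34144999-34145248, plus strand: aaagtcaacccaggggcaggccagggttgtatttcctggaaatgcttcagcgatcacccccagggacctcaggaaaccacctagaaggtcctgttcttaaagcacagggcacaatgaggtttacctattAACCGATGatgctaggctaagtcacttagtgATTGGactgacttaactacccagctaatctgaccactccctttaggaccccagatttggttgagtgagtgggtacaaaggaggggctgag

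In H2-Eb1 the X box core lay at bases -89 to -82 from the start and was followed by a Y box core at -59 to -55, with a further Y box core on the other strand at -35 to -31. H2-DMb1 held the same pair at -92 to -85 and -61 to -57, and its neighbour H2-DMb2 at -121 to -114 and -90 to -86. H2-Aa had no match to the X box core and held a CRE at -74 to -67 before its Y box core at -48 to -44. An X box with other letters would not have been matched, so H2-Aa cannot be said to lack one. An X box core followed by a Y box core within 60 bases was found in 21 of 32851 promoter windows of the same length (0.0639%), H2-Eb1, H2-Eb2, H2-DMb1 and H2-DMb2 among them. The letters were picked after the class II promoters had been read, so the presence of these genes is no test of enrichment. Single motifs were more common, with the Y box core in 33.8%, the X box core in 1.98% and the CRE in 1.55% of windows. H2-DMa had 2 starts among the RefSeq entries, with windows that begin at 34122582 and 34125268 of chromosome 17. None of the 3 motifs matched before its upstream start, and a Y box core at -198 to -194 was the only match before the other. The GENCODE gene runs from 34119541 to 34139101 and so begins before both windows. Other starts of H2-DMa were not searched, so these windows cannot show whether it lacks the module. A match is a description of letters and not a measured binding site.

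**Figure D1:**
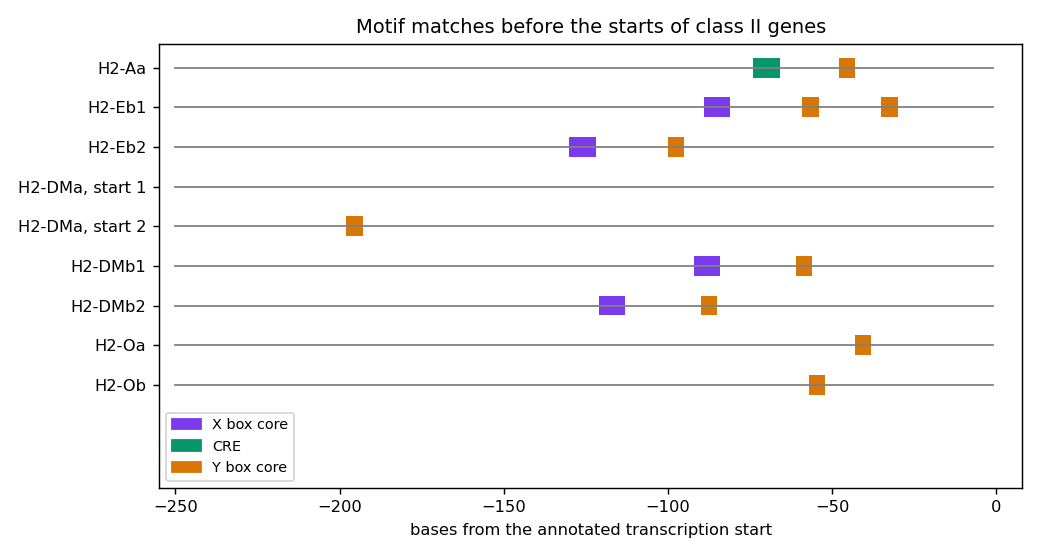
Positions of motif matches in the 250 bases before annotated starts of class II genes (x axis: bases from the start; rows: genes, with a row for each of the 2 starts of H2-DMa; bars: X box core, CRE and Y box core). The H2-Eb1, H2-Eb2, H2-DMb1 and H2-DMb2 rows show an X box core upstream of a Y box core. H2-Aa shows a CRE upstream of its Y box core and no match to the X box letters, and the first H2-DMa row is empty. Only the 2 H2-DMa starts with a RefSeq entry were searched.

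Total counts per sample ran from 20587482 to 26387488. Kdm6a was at 42.6 CPM ± 1.48 (SD, n = 4) in cKO and 62.6 CPM ± 1.59 (SD, n = 5) in WT (CPM, counts scaled by library total with TMM factors) and did not overlap between genotypes. Its counts are sums over the whole gene, which would include any exons outside the deleted part. No exon was counted alone, and the cause of the level left in cKO was not tested. Il2ra, the interleukin 2 receptor alpha chain gene that activated T cells express, was at 2180 to 2803 CPM in cKO and 2898 to 3486 CPM in WT, named here after its values were seen. Defining T cell genes were high in both genotypes, with Cd3e, a chain of the T cell receptor complex, at 231 to 247 CPM in cKO and 240.1 to 256 CPM in WT. The share of counts from mitochondrial genes was 2.59% ± 0.138 (SD, n = 4) in cKO and 2.38% ± 0.0572 (SD, n = 5) in WT, and its part in the results below was not tested. In bulk RNA, a change in the number of class II cells and a change in RNA per cell cannot be told apart. Sample cKO 2 stood apart from the other cKO samples in several class II genes, as given below, and WT 1 stood apart from the other WT samples in Cd74. Some values are therefore also given without cKO 2 or without WT 1.

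Per exon length, Cd74 had the highest level of the 7 genes in every sample, whereas in CPM, without regard to length, H2-DMa exceeded it in WT 3, 4, 5 and 9. Exon lengths were the merged exons of all annotated transcripts, 1679 bases for Cd74, 3448 for H2-DMa and 3798 for H2-Aa. The annotation behind the counts was not given, and the order of levels depends on these lengths. In CPM per kb of annotated exon, Cd74 was at 34.9 ± 5.74 (SD, n = 4) in cKO and 24.8 ± 3.53 (SD, n = 5) in WT. H2-DMa came next with 8.76 ± 2.43 CPM per kb in cKO and 13.6 ± 1.86 in WT. The chains followed at 2.26 ± 0.243 in cKO and 1.96 ± 0.287 in WT for H2-Eb1, and at 1.68 ± 0.570 in cKO and 1.38 ± 0.153 in WT for H2-Ab1. H2-DMb1 was at 0.507 ± 0.272 CPM per kb in cKO and 0.902 ± 0.223 in WT, H2-Aa at 0.420 ± 0.0757 in cKO and 0.361 ± 0.107 in WT, and Ciita at 0.116 ± 0.0558 in cKO and 0.104 ± 0.0208 in WT. The order of the levels was the same in both genotypes. In WT every neighbour in this order was separated without overlap, whereas in cKO H2-Eb1 overlapped H2-Ab1, and H2-DMb1 overlapped H2-Aa. For the alpha and beta chain genes of the same H2-A molecule, H2-Ab1 was 2.68 to 4.95 times H2-Aa per kb in cKO samples. In WT samples it was 2.73 to 5.03 times. The size of this ratio depends on the annotated lengths, and H2-Aa had only 20 to 52 reads per sample. In CPM, without regard to length, H2-Ab1 was at 3.05 to 6.20 and H2-Aa at 0.944 to 2.01 over all samples.

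Counts behind these levels differed widely. Cd74 had 843 to 1698 reads per sample and H2-DMa 513 to 1325, against 10 to 45 for H2-DMb1, 16 to 44 for Ciita and 20 to 52 for H2-Aa. Differences in the last 3 genes therefore rest on few reads.

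**Figure D2:**
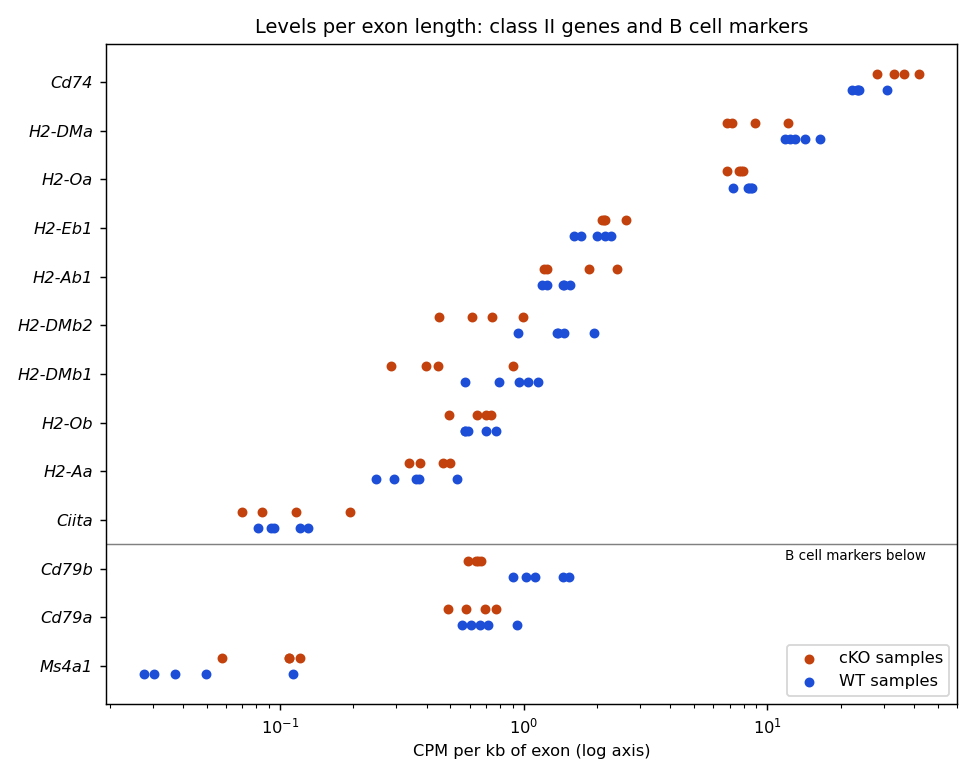
Level of each class II gene and of 3 B cell markers per kb of annotated exon (x axis: CPM per kb, log axis; points: single samples, cKO above WT in each row). Cd74 lies between 22.3 and 41.9 CPM per kb, while the B cell markers Cd79b, Cd79a and Ms4a1 lie between 0.0277 and 1.53. These are 3 of 16 B cell markers. Of those not drawn, Ighm was above Cd74 in every sample, at 124 to 184 CPM per kb, and Igkc was at 1.24 to 3.64.

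Cd74 was higher in cKO on average. It was at 47.3, 70.3, 55.8 and 61.2 CPM in cKO 2, 6, 7 and 8, and at 52.1, 39.5, 39.2, 39.8 and 37.4 CPM in WT 1, 3, 4, 5 and 9. Samples cKO 6, 7 and 8 were above every WT sample, and the groups overlapped only because cKO 2 was below WT 1. The means were 58.6 ± 9.63 (SD, n = 4) in cKO and 41.6 ± 5.93 CPM (SD, n = 5) in WT, a log2 fold change of 0.50 (SE 0.12). It was 0.59 without cKO 2 and also 0.59 without WT 1. Cd74 (ENSMUSG00000024610) lies on the plus strand of chromosome 18 from 60803848 to 60812652 of mm10, and none of its transcript 50-mers occurred in another gene.

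The chain genes showed smaller differences of the same sign. They lie together on chromosome 17 of mm10, H2-Ab1 at 34257689 to 34269419 and H2-Eb1 at 34305867 to 34316674 on the plus strand and H2-Aa between them at 34282744 to 34287823 on the minus strand. H2-Eb1, a beta chain gene, was at 4.17, 5.09, 4.08 and 4.20 CPM in cKO 2, 6, 7 and 8, and at 4.18, 3.91, 4.45, 3.11 and 3.36 CPM in WT 1, 3, 4, 5 and 9. Except for cKO 6, the cKO samples were within the range of WT, and the log2 fold change of 0.21 (SE 0.13) was 0.13 without cKO 6. H2-Ab1 was at 6.20, 3.10, 3.22 and 4.78 CPM in cKO 2, 6, 7 and 8, and at 3.72, 3.78, 3.97, 3.21 and 3.05 CPM in WT 1, 3, 4, 5 and 9. Samples cKO 2 and 8 were above every WT sample, and cKO 6 and 7 lay among the low WT samples. Its log2 fold change of 0.29 (SE 0.20) was 0.06 without cKO 2. H2-Aa was at 1.90, 1.28, 1.78 and 1.43 CPM in cKO 2, 6, 7 and 8, and at 2.01, 1.12, 1.37, 0.944 and 1.41 CPM in WT 1, 3, 4, 5 and 9. The highest and the lowest H2-Aa values were both WT, and the log2 fold change was 0.20 (SE 0.22), which was 0.11 without cKO 2, 0.10 without WT 5 and 0.39 without WT 1. C57BL/6 mice have no working E alpha chain gene, so H2-Eb1 has no partner in this strain. H2-Ea-ps, the annotated remnant of that partner, had 0 reads in every sample, where 3 reads, the upper limit for a count of 0, would be 0.114 to 0.144 CPM (counting error only).

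The editor genes H2-DMa and H2-DMb1 differed in the opposite sign. H2-DMa was at 41.8, 23.6, 24.6 and 30.7 CPM in cKO 2, 6, 7 and 8, and at 49.1, 56.9, 44.7, 40.7 and 42.7 CPM in WT 1, 3, 4, 5 and 9. Samples cKO 6, 7 and 8 were below every WT sample, while cKO 2 lay at the low end of WT. The means were 30.2 ± 8.37 CPM (SD, n = 4) in cKO and 46.8 ± 6.42 CPM (SD, n = 5) in WT, a log2 fold change of -0.63 (SE 0.16), which was -0.83 without cKO 2. H2-DMb1 was at 1.52, 0.745, 0.480 and 0.670 CPM in cKO 2, 6, 7 and 8, and at 1.74, 1.93, 0.969, 1.60 and 1.34 CPM in WT 1, 3, 4, 5 and 9. Here too cKO 2 was the only cKO sample inside the WT range, and the log2 fold change of -0.81 (SE 0.31) was -1.25 without it.

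Reads of the editor genes can be mistaken for those of other genes. H2-DMb1 spans 34153072 to 34160230 of chromosome 17 on the plus strand, next to H2-DMb2 at 34143307 to 34151555. The H2-DMa annotation (ENSMUSG00000037649, chromosome 17, 34119541 to 34139101, plus strand) shares 360 of its 3448 exonic bases with Brd2 on the opposite strand. Brd2, a bromodomain gene named here after its values were seen, was at 400.03 CPM ± 4.06 (SD, n = 4) in cKO and 407 CPM ± 8.05 (SD, n = 5) in WT (log2 fold change -0.02, SE 0.03, edgeR adjusted p = 0.621). The strand setting of the authors' counting was not given in the sources used here, and without it reads of this overlap cannot be assigned. H2-DMb1 shared 22.65% of its transcript 50-mers with H2-DMb2, so its reads may have been split between them. Summed over both genes, the level was 3.25, 1.53, 1.78 and 1.74 CPM in cKO 2, 6, 7 and 8, against 4.14, 5.32, 3.39, 3.26 and 3.89 CPM in WT 1, 3, 4, 5 and 9. On that sum the genotypes did not overlap, beside 15.9% of all genes tested. The gap was narrow and rests on few reads, with cKO 2 at 3.245 CPM just below WT 5 at 3.2556 CPM. The sum has no test.

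Ciita, the master switch of the class II genes, was low in every sample. It was at 1.85, 0.662, 1.10 and 0.804 CPM in cKO 2, 6, 7 and 8, and at 0.775, 1.24, 1.15, 0.896 and 0.877 CPM in WT 1, 3, 4, 5 and 9. Sample cKO 2 was the highest and cKO 6 the lowest of all 9. The log2 fold change of 0.17 (SE 0.29) turned to -0.21 without cKO 2. Ciita (chromosome 16, 10480059 to 10528418, plus strand) shares 329 of 9535 exonic bases with Dexi on the opposite strand. Dexi was at 19.4 CPM ± 1.66 (SD, n = 4) in cKO and 22.1 CPM ± 2.32 (SD, n = 5) in WT, far above Ciita. Without the strand setting, reads of this overlap cannot be assigned, and their part in the Ciita counts was not tested.

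None of the 7 genes had values free of overlap between the genotypes, beside 15.9% of all genes tested. By sign, 5 were higher and 2 lower in cKO, with a median log2 fold change of 0.20, beside 0.00125 over all genes tested.

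**Figure D3:**
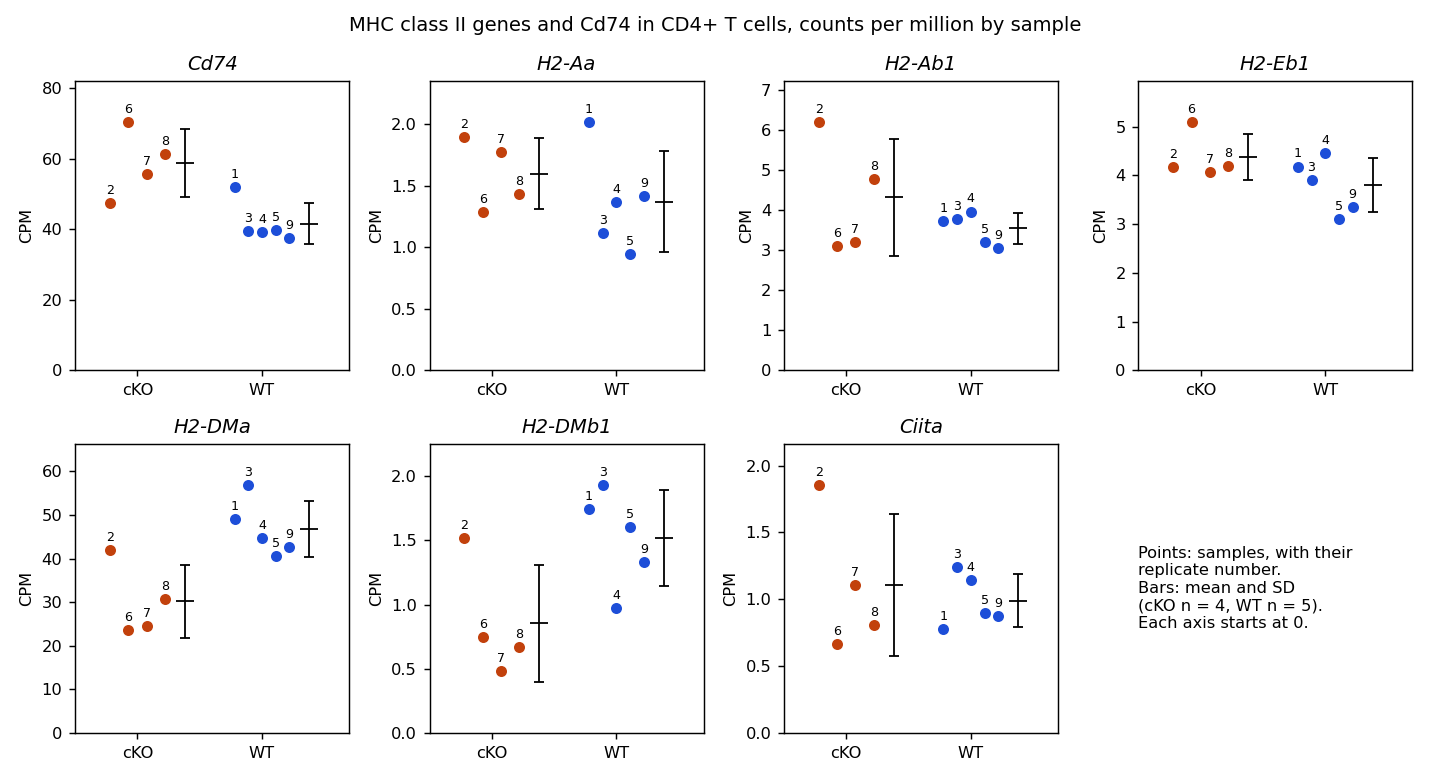
CPM of the 7 genes by sample (points with replicate numbers; bars: mean and SD; cKO n = 4, WT n = 5; each y axis starts at 0). Cd74 is higher in cKO 6, 7 and 8 than in any WT sample and H2-DMa and H2-DMb1 are lower in them, while cKO 2 lies near WT for these genes and highest of all for H2-Ab1 and Ciita.

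The abundant genes Cd74 and H2-DMa thus stood in different proportions. Per kb, Cd74 was 2.32, 6.11, 4.65 and 4.10 times H2-DMa in cKO 2, 6, 7 and 8, and 2.18, 1.43, 1.80, 2.01 and 1.80 times in WT 1, 3, 4, 5 and 9. Every cKO sample exceeded every WT sample in this ratio, by a narrow margin in cKO 2. The ratio was chosen after its values were seen and has no test.

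**Figure D4:**
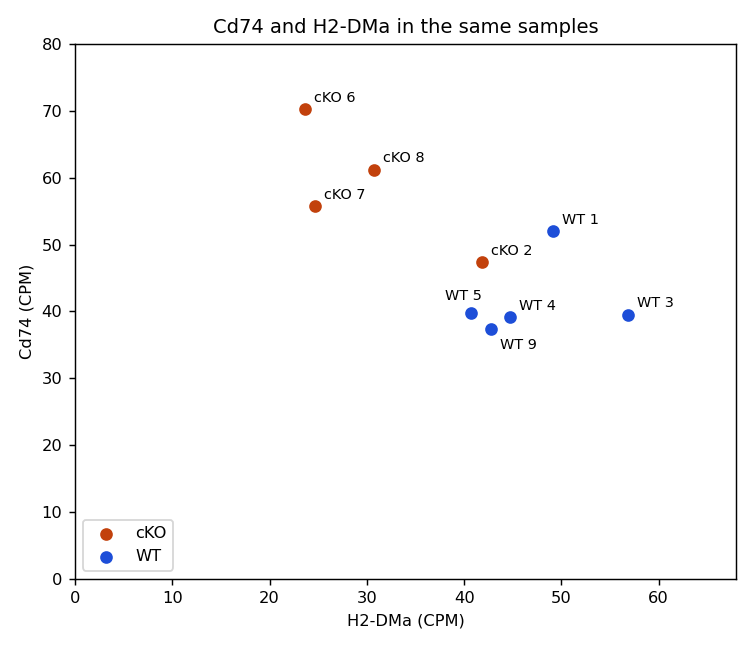
Cd74 against H2-DMa in the same samples (axes: CPM; points: 4 cKO and 5 WT samples). Samples cKO 6, 7 and 8 lie at 55.8 to 70.3 CPM of Cd74 and 23.6 to 30.7 CPM of H2-DMa, and cKO 2 lies beside the WT samples.

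Within genotypes the 7 genes did not vary as a block. Over the 21 pairs of genes, Pearson's r was taken on the deviations from the genotype mean of log2 CPM. Pairs with H2-Aa, H2-DMb1 or Ciita rest on 10 to 52 reads of that gene per sample, and the part of counting error was not tested. The values of r ran from -0.817 to 0.905 across 9 samples, which are few and share their libraries between the genes. The highest was between H2-Ab1 and H2-DMa, at 0.905 with and 0.772 without cKO 2, an omission that was chosen after the data were seen. H2-DMa and H2-DMb1, whose proteins form a pair, were at 0.767 with and 0.418 without cKO 2. Cd74 and Ciita were at -0.817 with and -0.696 without it. The value for Cd74 and H2-DMa was -0.415 with cKO 2 and 0.107 without.

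The other class II genes were tested with edgeR's quasi-likelihood test across all 14693 genes, of which 15.8% passed a Benjamini-Hochberg adjusted p of 0.05, with 1028 genes higher and 1296 genes (8.82%) lower in cKO. Of 5 with an ID, 3 could be tested, and H2-DMb2 alone fell, 2 others did not pass and 0 rose (also 0 in DESeq2, in limma-voom and by unadjusted p under 0.05). The list median was -0.13. H2-DMb2, a second DM beta chain gene, fell by 1.03 on the log2 scale (SE 0.24, edgeR adjusted p = 0.0171). It was at 1.73, 0.786, 1.30 and 1.07 CPM in cKO 2, 6, 7 and 8, against 2.40, 3.39, 2.42, 1.65 and 2.56 CPM in WT 1, 3, 4, 5 and 9. Only cKO 2 overlapped WT, by exceeding WT 5. The H2-DMb2 call was lost without cKO 6 (adjusted p = 0.0542) or cKO 8 (0.0524), and 25.9% of its 50-mers occur in other genes. H2-Oa and H2-Ob, the pair that restrains DM, were at 10.6 CPM ± 0.698 and 3.45 ± 0.569 (SD, n = 4) in cKO and at 11.6 ± 0.819 and 3.45 ± 0.479 (SD, n = 5) in WT, with log2 fold changes of -0.13 (SE 0.08) for H2-Oa and -0.0027 (SE 0.14) for H2-Ob. Neither passed, at edgeR adjusted p of 0.284 for H2-Oa and 0.993 for H2-Ob. H2-Eb2 had 17 reads over all 9 samples and was not tested.

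Of the factors that bind the X and Y boxes, the subunit gene Rfx5 rose and the others did not pass the test. Rfx5 was at 36.8, 45.5, 42.9 and 45.7 CPM in cKO 2, 6, 7 and 8, and at 34.5, 34.4, 32.1, 33.4 and 30.6 CPM in WT 1, 3, 4, 5 and 9. The genotypes did not overlap, and the log2 fold change was 0.37 (SE 0.07, edgeR adjusted p = 0.00475). The other RFX subunits Rfxap and Rfxank were at -0.06 and -0.03, the NF-Y genes Nfya, Nfyb and Nfyc at -0.16, 0.13 and -0.07, and Creb1 at 0.08 on the log2 scale. In all, 1 of 7 rose, 0 fell and 6 did not pass, beside 15.8% of all genes called in either direction. The list median was -0.03. An unadjusted p under 0.05 was reached by 2 in the higher and 1 in the lower direction. A fall was called for 0 of them by DESeq2 or by limma-voom. Upper-quartile scaling called 2 higher, as did leaving out WT 1, which also gave 1 lower.

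Genes upstream of Ciita went in both directions. Among 11 that could be tested, 2 rose, 3 fell and 6 did not pass, beside 15.8% of all genes called in either direction. The list median was 0.0016. Irf1, a transcription factor that acts on the Ciita promoter, was at 289 CPM ± 50.3 (SD, n = 4) in cKO and 212 CPM ± 33.0 (SD, n = 5) in WT, and rose by 0.45 (SE 0.13, edgeR adjusted p = 0.0336). Ifngr1, a receptor chain for interferon-gamma, fell by 0.40 (SE 0.11, adjusted p = 0.0288). Socs1, an inhibitor of the receptor's kinases, was at 153 CPM ± 7.84 in cKO (SD, n = 4) and 183 CPM ± 11.5 in WT (SD, n = 5), and fell by 0.27 (SE 0.05, adjusted p = 0.00720). Prdm1, a repressor of Ciita in B lineage cells named here as the remaining gene of the count, fell by 0.81 (SE 0.24, adjusted p = 0.0448). Ifng itself was at 2.09 CPM ± 0.902 in cKO (SD, n = 4) and 1.24 CPM ± 1.02 in WT (SD, n = 5). The Socs1 call held in each of the 15 alternatives. The Irf1 call was lost when any of cKO 2, 6 or WT 3, 4, 9 was left out (adjusted p up to 0.108). The Ifngr1 call was lost when any of cKO 6, 7, 8 or WT 3, 4, 5, 9 was left out (up to 0.0779), and the Prdm1 call when any of cKO 6, 7, 8 or WT 3, 4, 5 was (up to 0.131). Without WT 1 the list held 4 genes that rose and 4 that fell.

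Among proteases and other genes of class II processing and turnover, Lgmn and Ctsl rose, 6 of 8 tested did not pass and 0 fell. This compares with 15.8% of all genes called in either direction. The list median was 0.07. A fall was also found for 0 by DESeq2, by limma-voom and by unadjusted p under 0.05, which 4 reached in the higher direction. Lgmn, an asparaginyl protease of endosomes, was at 13.6 CPM ± 0.931 (SD, n = 4) in cKO and 9.67 CPM ± 0.858 (SD, n = 5) in WT, without overlap, and rose by 0.50 (SE 0.08, edgeR adjusted p = 0.00293). Ctsl, the protease that trims the invariant chain in thymic epithelium, rose by 0.62 (SE 0.17, adjusted p = 0.0316), but leaving out any of cKO 2, 6, 7, 8 or WT 4, 5 ended that call (adjusted p up to 0.0772). Ctss, which does so in B cells and dendritic cells, was at 104 CPM ± 3.32 (SD, n = 4) in cKO and 100.3 CPM ± 8.70 (SD, n = 5) in WT (adjusted p = 0.561).

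The binding partners of class II and of Cd74 at the cell surface showed 1 rise among 6 tested, 0 falls and 5 not passing. The list median was 0.10, and 15.8% of all genes were called in either direction. The rise was that of Cd4, the coreceptor for class II, at 956 CPM ± 43.6 (SD, n = 4) in cKO and 872 CPM ± 35.6 (SD, n = 5) in WT (log2 fold change 0.13, SE 0.04, edgeR adjusted p = 0.0480). This call ended when any of cKO 6, 7, 8 or WT 1, 3, 4, 5 was left out, and with no count filter (adjusted p from 0.0599 to 0.137). DESeq2 called 2 of these genes higher and 1 lower, the same numbers that reached an unadjusted p under 0.05, and limma-voom called 1 higher and 0 lower.

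The costimulatory ligands, which antigen-presenting cells show beside class II, changed in both directions, 2 of 6 higher, 2 lower and 2 not passing, with a median of 0.21. Cd80 was at 21.4, 34.2, 23.0 and 27.7 CPM in cKO 2, 6, 7 and 8 and at 16.2, 13.3, 10.4, 14.9 and 12.9 CPM in WT 1, 3, 4, 5 and 9, and rose by 0.97 (SE 0.15, edgeR adjusted p = 0.00215). Cd40, whose protein receives T cell help on B cells and dendritic cells, was at 1.44 CPM ± 0.293 (SD, n = 4) in cKO and 0.637 CPM ± 0.126 (SD, n = 5) in WT and rose by 1.18 (SE 0.20, adjusted p = 0.00413). Cd86 fell by 2.07 (SE 0.22, adjusted p = 0.000303), and Icosl, the ligand of ICOS, fell by 0.68 (SE 0.16, adjusted p = 0.0154). All 4 were free of overlap between the genotypes and kept their calls in each of the 15 alternatives. Over all genes tested, 15.8% were called in either direction and 15.9% were free of overlap.

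**Figure D5:**
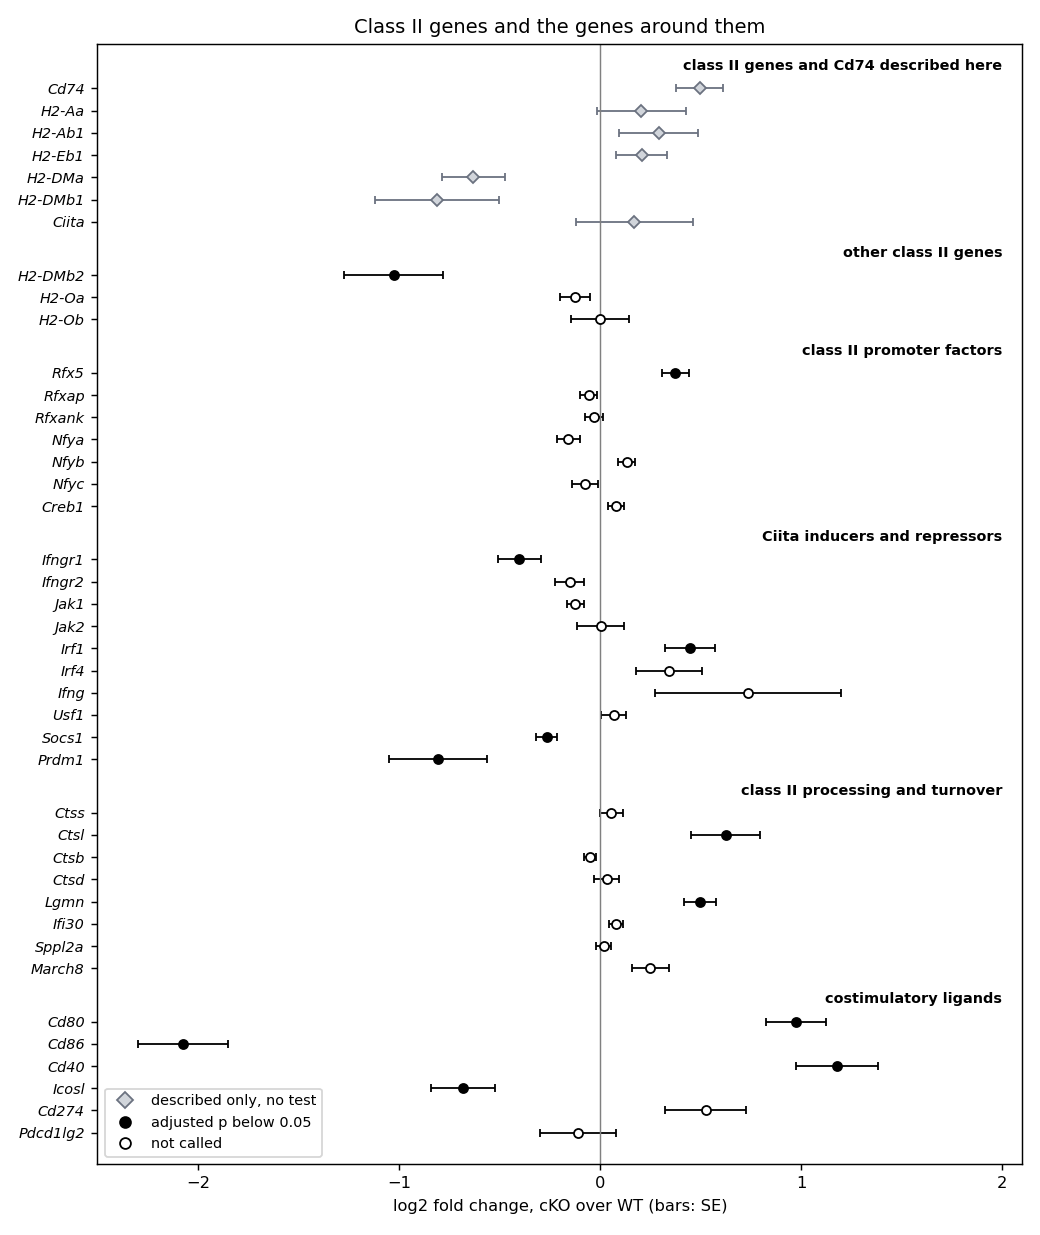
Log2 fold change, cKO over WT, of the class II genes and of genes around them (points with SE; diamonds: the 7 genes described here, without a test; filled circles: edgeR adjusted p below 0.05; open circles: not called). Cd74 lies at 0.50 and H2-DMa at -0.63, and the called genes run from Cd86 at -2.07 to Cd40 at 1.18.

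Markers of cells that usually carry class II were low, apart from a few genes. Of 16 B cell markers with an ID, 8 stayed under 1 CPM in every sample, none was at 0 throughout, and the summed level was 263 to 300.1 CPM in cKO and 251 to 360.5 CPM in WT. Ighm made up most of it, at 251 to 287 CPM in cKO and 235 to 346 CPM in WT, and the others summed to 9.65 to 16.6 CPM in cKO and 11.5 to 16.7 CPM in WT. Among the 13 tested, 12 did not pass, 1 fell and 0 rose, beside 15.8% of all genes called in either direction. The list median was 0.0098. A rise was called for 0 by DESeq2 or limma-voom, and an unadjusted p under 0.05 was reached by 1 in the higher and 2 in the lower direction. Without WT 1, 1 B cell marker was called higher. The gene that fell was Cd79b, a chain of the B cell receptor, at 0.910 CPM ± 0.0438 (SD, n = 4) in cKO and 1.72 CPM ± 0.389 (SD, n = 5) in WT (log2 fold change -0.91, SE 0.19, edgeR adjusted p = 0.0104). Its partner Cd79a was at 0.921 CPM ± 0.178 (SD, n = 4) in cKO and 1.02 CPM ± 0.217 (SD, n = 5) in WT, and Cd74 per kb was 48.0 to 74.3 times Cd79a in cKO and 23.6 to 46.7 times in WT. Cd79a had 16 to 36 reads per sample, and Ighm, of the same list, was above Cd74 per kb in every sample. No B cell sample was at hand to give this ratio in B cells, so the source of Cd74 was not tested. The B cell surface marker Ms4a1 was at 0.612 CPM ± 0.173 (SD, n = 4) in cKO and 0.319 CPM ± 0.218 (SD, n = 5) in WT (adjusted p = 0.151), and Bank1, a B cell scaffold gene, at 3.73 CPM in cKO and 3.54 CPM in WT (adjusted p = 0.871).

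Of 11 dendritic cell markers, Clec9a, Cd209a and Clec10a were at 0 in every sample, 7 with these included stayed under 1 CPM, and Itgax, which encodes CD11c, had at most 0.0480 CPM. Their sum was 7.82 to 14.5 CPM in cKO and 6.89 to 11.3 CPM in WT, led by the chemokine gene Ccl22 at 3.65 CPM ± 0.675 (SD, n = 4) in cKO and 3.61 ± 1.22 (SD, n = 5) in WT. Neither it nor Zbtb46 or Fscn1 passed the test, and 0 of 4 tested were called by edgeR, DESeq2 or limma-voom (1 higher and 0 lower by unadjusted p under 0.05), with a median of 0.31. Without cKO 7, Fscn1 was called higher (edgeR adjusted p = 0.0296). Of 11 macrophage and monocyte markers, C1qa, C1qb and C1qc were at 0 throughout, 8 with these included stayed under 1 CPM, and the sum was 32.2 to 52.2 CPM in cKO and 21.1 to 36.7 CPM in WT. Csf1r was at 15.5 CPM ± 1.86 (SD, n = 4) in cKO and 14.3 ± 2.20 (SD, n = 5) in WT. Mpeg1, which encodes a pore-forming protein of phagocytes, was at 30.8, 20.5, 14.6 and 16.0 CPM in cKO 2, 6, 7 and 8 and at 5.54, 6.05, 6.13, 21.8 and 3.89 CPM in WT 1, 3, 4, 5 and 9. WT 5 was inside the cKO range, and the log2 fold change of 1.26 (SE 0.43) did not pass (edgeR adjusted p = 0.0706) but did without WT 5 (0.00142), with no count filter (0.0316) and in limma-voom (0.0189). Of the 3 tested, edgeR and DESeq2 called 0 and limma-voom 1 higher, with 1 higher and 0 lower by unadjusted p under 0.05 and a median of 0.30. Over all genes tested, edgeR called 15.8% in either direction, so 0 calls among 4 or 3 genes say little about either marker list.

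Of 2 tested plasma cell markers 0 passed in edgeR, DESeq2 or limma-voom (1 higher and 0 lower by unadjusted p under 0.05), with a median of 0.17, and with Sdc1 at 3.42 CPM in cKO and 2.31 CPM in WT and Derl3 at 1.20 CPM in cKO and 1.40 CPM in WT. Without WT 1, Sdc1 was called higher (edgeR adjusted p = 0.0369). The sum of this list was 3.75 to 5.84 CPM in cKO and 3.17 to 4.51 CPM in WT. For CD8 T and NK cells the sum was 15.2 to 19.8 CPM in cKO and 12.0 to 15.3 CPM in WT, and of 2 tested (median 0.43) Cd8b1 rose by 0.28 (SE 0.08, edgeR adjusted p = 0.0296), a call that ended when any of cKO 2, 6, 8 or WT 3, 5, 9 was left out. Cd8a did not pass, at 2.70 CPM in cKO and 1.80 CPM in WT, except without WT 1 (adjusted p = 0.0294). Of the stroma and vessel markers, Ccl19 and Ccl21a were at 0 throughout, and all but Pecam1 summed to at most 0.621 CPM in cKO and 0.687 CPM in WT. Pecam1, which T cells also express, was at 97.2 CPM ± 9.63 (SD, n = 4) in cKO and 108 ± 10.6 (SD, n = 5) in WT (adjusted p = 0.246), so 0 of 1 tested passed in edgeR, and 0 in DESeq2, in limma-voom and by unadjusted p under 0.05. Beside 15.8% of all genes called in either direction, counts from lists with 1 or 2 genes tested say little about those cells. Among 8 CD4 T cell markers, 2 rose (Cd4 and Cd5), 3 fell (Cd3d, Cd3g and Lck) and 3 did not pass, beside 15.8% called in either direction over all genes, with changes of at most 0.23 in size among these 5 and a list median of -0.12. The calls of Cd3g and Cd3d each ended when any of cKO 2, 6, 8 or WT 3, 4, 5, 9 was left out, and that of Cd3d also with upper-quartile scaling. The part of these other cells in the class II values was not tested.

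Genes that varied most like the class II genes within genotypes were sought among 13193 genes whose mean reached 1 CPM, the 7 genes left out. The class II level was the mean of Cd74, H2-Aa, H2-Ab1 and H2-Eb1 as deviations of log2 CPM from the genotype mean. It ran from -0.09 in cKO 7 to 0.12 in cKO 2, and from -0.23 in WT 5 to 0.28 in WT 1. Its own parts followed it unequally, with r of 0.791 for H2-Aa, 0.623 for H2-Eb1, 0.563 for H2-Ab1 and 0.322 for Cd74. H2-Aa, the closest of them, had 20 to 52 reads per sample. The nearest by Pearson's r over the 9 samples were Bspry at 0.943, Wdpcp at 0.934, Rtl5 at 0.931, Pik3ca at 0.915, Fbxo30 at 0.909, Zfp459 at 0.907, Igkc at 0.900 and 4930469K13Rik at 0.899. Igkc, the kappa light chain of antibodies, was the only gene of the marker lists among them, at 1.31 CPM ± 0.355 (SD, n = 4) in cKO and 1.17 ± 0.528 (SD, n = 5) in WT. Between 1 and 5 of these 8 genes were among the nearest 8 when 1 sample was left out, with 1 remaining without WT 1, WT 4 or WT 5, so the ranking rests on single samples.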

How the data were processed

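Libraries were made with a stranded kit after mRNA enrichment, per the labels' protocols. The deposited table holds raw read counts per Ensembl gene, whole numbers that the authors did not normalize, per the file headers and values. bcl2fastq 2.17 and build mm10 are named in the submitters' processing notes; the aligner, counter, strand setting and annotation were not given in the sources used here. Symbols were missing for 1410 of 39017 IDs. Exons and positions came from GENCODE M21.

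Counts were tested with edgeR 4.0.16 (quasi-likelihood, TMM, filterByExpr, two-sided, Benjamini-Hochberg over all tested genes, adjusted p below 0.05), without covariates, with standard errors from fold change and F. Log2 CPM used a prior count of 2. Alternatives were DESeq2 1.42.0, limma-voom (limma 3.58.1), other scalings and filters, and leaving out each sample. The tests were checked on simulated data. Chi-square per gene between samples of a group ran from 3.52 to 21.9, so none agreed within sampling noise. The 7 genes and all lists were chosen with earlier results of these data known. Named genes were up to 4 called members per list with the smallest adjusted p (otherwise up to 2), the 2 most abundant markers per list and the 8 most alike genes; others are named as part of a list. Ighd had no matching ID. Some genes of the lists are counted but not reported here by name.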

Additional observations from a re-analysis of the deposited data

Results flagged for a closer look

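In 7 of 92 groups of values, 1 sample lay far from the rest of its genotype, where chance gives about 1 in 20. Cd74 in WT 1 was at 52.1 CPM, above a WT median of 39.5 CPM. H2-Eb1 in cKO 6 was at 5.09 CPM, above a cKO median of 4.19 CPM. H2-Oa in WT 1 was at 10.2 CPM, below a WT median of 11.9 CPM. H2-Eb2 in cKO 2 was at 0.0843 CPM, which is 2 reads, above a cKO median of 0.0463 CPM. Zbtb46 in cKO 7 was at 2.06 CPM, below a cKO median of 3.17 CPM. Mpeg1 in WT 5 was at 21.8 CPM, above a WT median of 6.05 CPM. Col1a1 in cKO 8 was at 0.313 CPM, above a cKO median of 0.0661 CPM. The causes were not tested.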

How the results depend on the processing

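The signs of Cd74, H2-Aa, H2-Ab1, H2-Eb1, H2-DMa and H2-DMb1 held in all 15 alternatives, with log2 fold changes, 1 sample left out at a time, of 0.40 to 0.59, 0.10 to 0.39, 0.06 to 0.42, 0.13 to 0.27, -0.83 to -0.53 and -1.25 to -0.63. Ciita turned to -0.21 without cKO 2 and otherwise reached 0.36. With 1 sample left out, genes called numbered 531 to 1363 higher and 732 to 1570 lower, the fewest without cKO 6, beside 1028 and 1296 with all samples. The numbers of list genes called higher ran from 1 to 2 for promoter factors, 0 to 4 for genes upstream of Ciita, 1 to 2 for processing, 0 to 1 for partners, 0 to 1 for B cell, plasma cell, dendritic cell and macrophage markers each, 0 to 2 for CD8 T and NK markers and 1 to 2 for CD4 T cell markers. Those called lower ran from 0 to 1 for other class II genes, for promoter factors and for partners, 1 to 4 for genes upstream of Ciita and 1 to 4 for CD4 T cell markers. Upper-quartile scaling called 2 promoter factors higher, DESeq2 called 2 partners higher and 1 lower, no count filter called 1 partner lower, 1 macrophage marker higher and 1 CD4 T cell marker higher, and limma-voom called 1 macrophage marker higher. Of the 8 genes most like class II, 1 was left among the nearest 8 with the genotype means left in, and 1 to 5 with 1 sample left out. The causes were not tested. No paired analysis was possible because the genotypes share no replicate number. Depth limits H2-Aa, H2-DMb1 and Ciita, at 10 to 52 reads per sample.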
